A study of Homo sapiens with 12 samples.

Results

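The genes described here are HMOX1, which encodes the inducible heme oxygenase, and a set of genes that break down heme, finish its synthesis or move and store iron. Of 9 listed genes (HMOX1, HMOX2, BLVRA, BLVRB, FTH1, FTL, TFRC, FECH and BACH1), members were chosen by their deposited detection p-values, taking genes with a probe below 0.05 on both arrays in 1 group or more. The platform annotation gave 9 probes for 8 of the genes, and FTH1 was not analysed here. The rule kept 6 genes with 1 probe each, all with a detection p-value of 0 on all 12 arrays, out of 12117 named genes and 19631 probes detected in the series. H1299, an established line of human non-small cell lung carcinoma, was treated for 6 h, washed and collected at 12 h or 24 h after treatment. The groups are GAPDH siRNA given by lipofection, the same kind of siRNA carried by PTD-DRBD, and PBS buffer as control, each at both times and with 2 arrays per group, 12 arrays in all. PTD-DRBD is a fusion protein that joins a peptide transduction domain, which enters cells, to a domain that binds double-stranded RNA. None of the 6 groups holds a carrier without GAPDH siRNA, so effects of the carrier and of the siRNA cannot be told apart, and no label states that arrays sharing a group were made from separate cultures.

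Heme oxygenases open the heme ring and release iron, carbon monoxide and biliverdin, which the biliverdin reductase BLVRA turns into bilirubin. BLVRB is the other biliverdin reductase in the set. The freed iron is held by ferritin, made of the heavy chain FTH1 and the light chain FTL, while TFRC, the transferrin receptor, brings iron into the cell and FECH, ferrochelatase, puts iron into the ring in the last step of heme synthesis. BACH1 is a heme-binding repressor that occupies the enhancers of HMOX1 and the ferritin genes, where the activator NRF2 (gene NFE2L2) also binds with small MAF proteins.

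Between 17990 and 19097 probes were detected per array, raw array medians ran from 61.3 to 73.1 intensity units, and arrays of the same group correlated at 0.997 to 0.998. GAPDH, the target of the siRNA, had log2 normalized intensities of 13.81 and 13.74 with lipofection at 12 h, 11.75 and 11.62 with PTD-DRBD and 15.02 and 15.05 in control cells. At 24 h they were 14.07 and 14.21 with lipofection, 12.27 and 12.25 with PTD-DRBD and 15.09 and 15.11 in control cells. Relative to control cells GAPDH was 2.40-fold lower with lipofection and 10.2-fold lower with PTD-DRBD at 12 h. The corresponding values at 24 h were 1.95-fold and 7.16-fold lower, with a limma adjusted p of at most 6.72e-05 in the 4 comparisons. KRT8, KRT18 and VIM, known to be expressed in this line, were detected on all 12 arrays. Of the markers of other cells, HBB, ALAS2 and SLC4A1 of red cell precursors, CD14, CSF1R and MRC1 of macrophages and COL1A1, COL3A1, VWF and CDH5 of stroma and vessels were detected on 0 arrays. EPOR, HBG1, KLF1, CD68, ITGAM and 1 of 3 PTPRC probes from the same lists were detected on all 12 arrays. PECAM1 was detected on 6, HBA1 and another PTPRC probe on 5, a DCN probe on 2 and a CD163 probe on 1. These probes were dim (raw intensities of 211 or less) except CD68 with 3491 to 4538. The second arrays of the lipofection and PTD-DRBD groups at 24 h differed from their partners in a shared direction (correlation of the differences across probes 0.25). Member calls that change without both second treated arrays are therefore given with and without them. For genes of the wider lists, not every 24 h call lost in that fit is named below. Between other groups of the same time the correlation of the differences ran from -0.19 (lipofection and control at 24 h) to -0.001 (lipofection and control at 12 h). For PTD-DRBD and control it was -0.16 at 12 h and -0.13 at 24 h. Its sign depends on which array of a group is numbered second.

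HMOX1 (chr22:35381096-35394207, GRCh38.p14) was the member with the widest range. At 12 h its log2 normalized intensities were 11.92 and 12.01 with lipofection, 9.98 and 9.89 with PTD-DRBD and 9.34 and 9.31 in control cells. At 24 h they were 11.81 and 11.77 with lipofection, 9.18 and 9.16 with PTD-DRBD and 8.85 and 8.80 in control cells. The order was the same at both times, with lipofection highest, PTD-DRBD next and control lowest, and the arrays of no pair of groups overlapped. On the scanner's own scale, before any correction, the probe read 3891 and 4254 with lipofection, 1010 and 1083 with PTD-DRBD and 787 and 719 in control cells at 12 h. Raw values at 24 h were 3376 and 3279 with lipofection, 583 and 530 with PTD-DRBD and 496 and 522 in control cells, and the PTD-DRBD and control arrays lay closest together there, still without overlap.

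**Figure D1:**
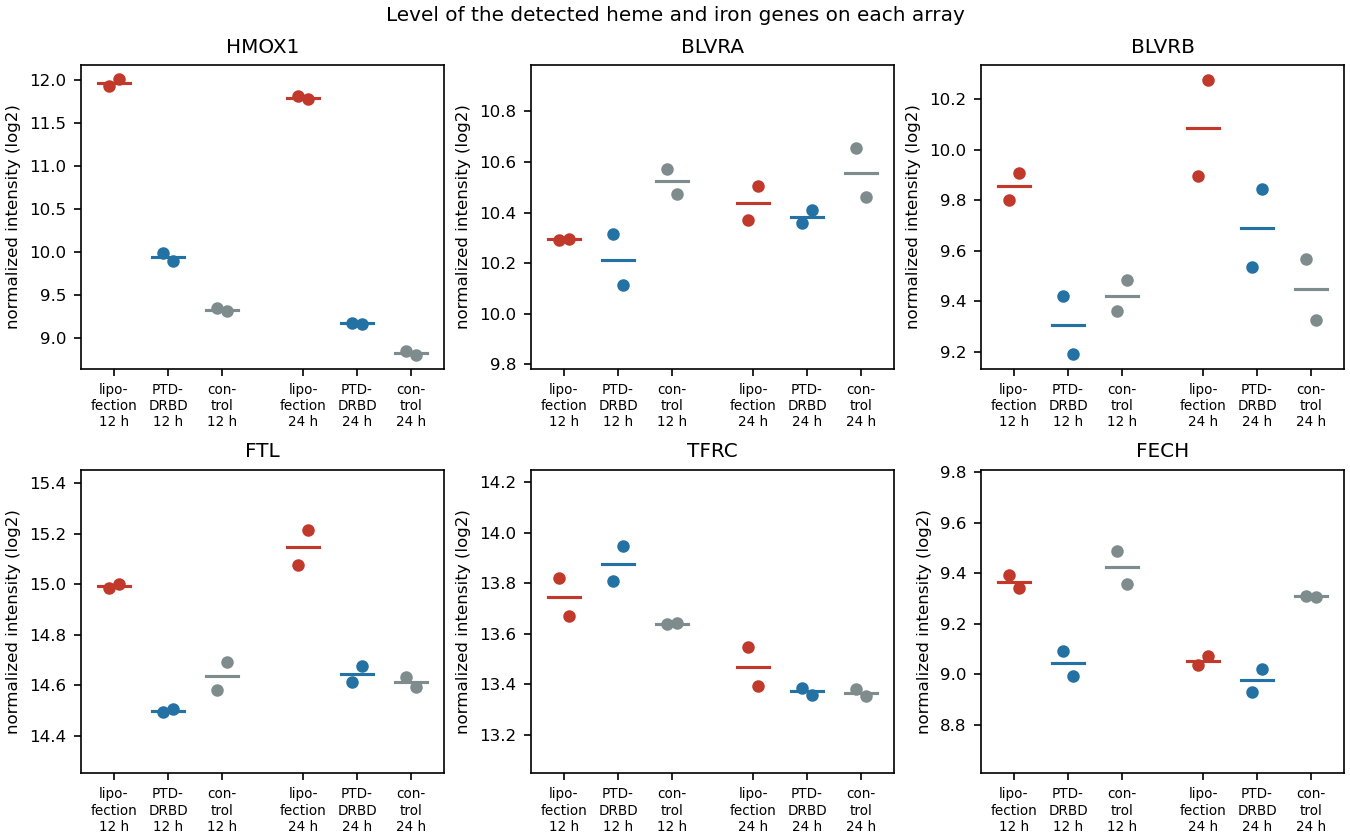
Log2 normalized intensity of each of the 6 detected genes on each of the 12 arrays. Points are arrays, bars are means of 2 arrays, and the groups run lipofection, PTD-DRBD and control at 12 h and then at 24 h. HMOX1, BLVRB and FTL are highest with lipofection at both times, FECH is highest in control cells at 24 h, and the vertical scale differs between panels.

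With lipofection HMOX1 stood 6.22-fold above control cells at 12 h, a log2 difference of 2.64 ± 0.08 (SE, n = 2 arrays each), and 7.82-fold above them at 24 h, a log2 difference of 2.97 ± 0.08. Its level with lipofection was 4.07-fold that with PTD-DRBD at 12 h, a log2 difference of 2.03 ± 0.08, and 6.16-fold at 24 h, 2.62 ± 0.08. These 4 values are given without a test, because HMOX1 heads the set for its known rise with lipofection in these arrays. The authors' deposited table of changed probes listed HMOX1 with a fold of 5.86 at 12 h and 7.24 at 24 h for lipofection over control, and listed no other member in any comparison. That table has a fold threshold of 1.6. No other difference of a member from control reached it here (at most 1.56-fold, BLVRB with lipofection at 24 h). Absence from the table therefore does not show a lack of change. In bulk RNA, a higher signal from every cell and a high signal from a share of the cells cannot be told apart.

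HMOX1 also rose with PTD-DRBD, by less. Because HMOX1 was listed with earlier results of these arrays known, its calls against control are description. The difference from control was 0.61 ± 0.08 on the log2 scale at 12 h, which is 1.53-fold (limma adjusted p = 0.0024), and 0.34 ± 0.08 at 24 h, which is 1.27-fold (limma adjusted p = 0.0264). The 12 h call held in every one of 21 other settings of the processing, whereas the 24 h call was lost when any of the 4 arrays compared was left out (limma adjusted p between 0.0694 and 0.140), when only those 4 arrays were fitted (0.0896) and without both second treated arrays (0.145). In control cells HMOX1 itself was lower at 24 h than at 12 h, with group means of 8.82 and 9.33, a log2 change of -0.50 ± 0.08 (limma adjusted p = 0.0042). The difference from control thus stood against a control level that had itself changed. The lipofection difference at 24 h exceeded that at 12 h by 0.33 (95% interval 0.09 to 0.57, given without a test), and the PTD-DRBD difference was smaller at 24 h than at 12 h by a log2 change of -0.27 (95% interval -0.51 to -0.03, limma adjusted p = 0.275).

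Ranked over the 6 groups, mean HMOX1 levels were 11.96 with lipofection at 12 h, 11.79 with lipofection at 24 h, 9.94 with PTD-DRBD at 12 h, 9.33 in control cells at 12 h, 9.17 with PTD-DRBD at 24 h and 8.82 in control cells at 24 h. Arrays of neighbouring groups did not overlap at any step of this order. The smallest steps, between PTD-DRBD at 24 h and control at 12 h and between the lipofection groups, mix treatment with time or lie within a treatment and were not tested.

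Of the biliverdin reductases, BLVRB rose with lipofection at 24 h, and BLVRA passed in no comparison. BLVRB (chr19:40447768-40465745) had log2 levels of 9.80 and 9.91 with lipofection, 9.42 and 9.19 with PTD-DRBD and 9.36 and 9.49 in control cells at 12 h. At 24 h its levels were 9.90 and 10.28 with lipofection, 9.54 and 9.85 with PTD-DRBD and 9.57 and 9.33 in control cells. Both lipofection arrays lay above both control arrays at each time, while PTD-DRBD and control arrays overlapped at both times. The lipofection difference from control was 0.64 ± 0.15 at 24 h, 1.56-fold (limma adjusted p = 0.0150), and 0.43 ± 0.15 at 12 h (limma adjusted p = 0.110). BLVRB had the widest spread of the members between arrays of a group. Its 24 h call was lost without the second lipofection array (log2 difference 0.45, limma adjusted p = 0.133), without the second control array (0.52, limma adjusted p = 0.111) and without both second treated arrays (limma adjusted p = 0.0976). The 12 h difference in turn passed in 4 of the 21 settings, with limma adjusted p between 0.0341 and 0.0476.

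BLVRA (chr7:43758122-43807342) had log2 levels of 10.29 and 10.30 with lipofection, 10.31 and 10.11 with PTD-DRBD and 10.57 and 10.47 in control cells at 12 h, and 10.37 and 10.51 with lipofection, 10.36 and 10.41 with PTD-DRBD and 10.65 and 10.46 in control cells at 24 h. All treated arrays at 12 h lay below both control arrays, and at 24 h the PTD-DRBD arrays did while the lipofection arrays overlapped with control. The differences from control were -0.23 for lipofection and -0.31 for PTD-DRBD at 12 h (limma adjusted p = 0.209 and 0.113), and -0.12 and -0.17 at 24 h (0.449 and 0.287). The PTD-DRBD difference at 12 h passed in 3 of the 21 settings (limma adjusted p 0.0392 to 0.0447). HMOX2, the constitutive heme oxygenase, lay just outside the detection rule, with a detection p-value of 0.0524 on the first and 0.0216 on the second control array at 12 h and of at least 0.113 on the other 10 arrays, and no fold is given for it.

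Ferritin light chain shared the lipofection pattern. FTL (chr19:48965309-48966879) had log2 levels of 14.988 and 15.003 with lipofection, 14.49 and 14.51 with PTD-DRBD and 14.58 and 14.69 in control cells at 12 h. At 24 h the levels were 15.08 and 15.22 with lipofection, 14.61 and 14.68 with PTD-DRBD and 14.63 and 14.59 in control cells. The 4 lipofection arrays were the highest of the 12, and PTD-DRBD arrays lay below control at 12 h and overlapped with control at 24 h. With lipofection FTL was 1.28-fold higher than in control cells at 12 h, a log2 difference of 0.36 ± 0.08 (limma adjusted p = 0.0242), and 1.45 times the control level at 24 h, 0.53 ± 0.08 (limma adjusted p = 0.0022). Against PTD-DRBD it was higher by 0.50 ± 0.08 at 12 h (limma adjusted p = 0.0042) and by 0.50 ± 0.08 at 24 h (limma adjusted p = 0.0069). PTD-DRBD differed from control by -0.14 at 12 h (95% interval -0.32 to 0.04, limma adjusted p = 0.413) and by 0.03 at 24 h (95% interval -0.15 to 0.21, limma adjusted p = 0.838).

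The FTL rise at 24 h and the gap to PTD-DRBD at 12 h held in all 21 settings. The rise at 12 h did not pass without any one of the 4 arrays compared (limma adjusted p 0.0611 to 0.160) or with only those arrays fitted (0.0569), and the gap to PTD-DRBD at 24 h did not pass without the second lipofection array (0.0544), with only the arrays compared (0.100) or without both second treated arrays (0.132), although its log2 value stayed between 0.43 and 0.57. FTL is among the brightest probes, at 52.2% to 91.0% of the brightest probe's raw value on its array, and the highest share belonged to the second lipofection array at 24 h. Whether signals near the top of the scanner's range limit the measured difference was not tested. The start of the FTL transcript is shown because iron regulatory proteins bind ferritin mRNA there and control its translation, which these arrays do not measure. The 6 capitals mark the loop.

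FTL, bases 20 to 49 of the transcript, chr19:48965328-48965357, plus strand, GRCh38.p14 (RefSeq): ggtctgtctcttgcttcaaCAGTGTttgga

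The loop was found as a C, any 5 bases, CAGTG and any base, a pattern that 1.67% of the 35116 windows of 50 bases after a RefSeq gene start hold in the direction of transcription.

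The promoters of the members that passed a test besides HMOX1 are shown with the matches to 3 motifs. All are 250 bases before the RefSeq gene start, GRCh38.p14, written in the direction of transcription, and capitals mark a motif match.

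BLVRB, chr19:40465746-40465995, minus strand: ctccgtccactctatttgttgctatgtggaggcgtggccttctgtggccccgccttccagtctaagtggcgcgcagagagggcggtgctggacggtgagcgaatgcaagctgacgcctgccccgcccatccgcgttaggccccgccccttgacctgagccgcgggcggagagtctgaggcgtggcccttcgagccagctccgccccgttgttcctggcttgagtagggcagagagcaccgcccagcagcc

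FTL, chr19:48965059-48965308, plus strand: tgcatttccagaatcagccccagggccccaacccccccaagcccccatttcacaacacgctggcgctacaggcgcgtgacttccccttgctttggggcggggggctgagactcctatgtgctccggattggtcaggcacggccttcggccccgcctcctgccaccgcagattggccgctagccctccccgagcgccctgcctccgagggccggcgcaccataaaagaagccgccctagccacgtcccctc

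FECH, chr18:57586703-57586952, minus strand: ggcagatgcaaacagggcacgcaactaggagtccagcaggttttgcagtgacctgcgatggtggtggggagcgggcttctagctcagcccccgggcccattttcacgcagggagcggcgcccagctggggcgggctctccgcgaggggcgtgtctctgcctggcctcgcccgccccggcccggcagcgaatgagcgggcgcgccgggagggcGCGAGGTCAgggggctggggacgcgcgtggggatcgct

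Searched on both strands were TGACNNNGC, the core of the antioxidant response element, TGANTCA, bound by AP-1, and CACGTG, an E-box. These letters occur in 10.9%, 6.57% and 6.34% of 35116 RefSeq promoter windows of this length. The BLVRB and FTL windows hold none of the 3 motifs, and the FECH window holds 1 match to the antioxidant response element core, on the reverse strand between 38 and 30 bases before the start. A match is a run of letters, not a shown binding site, and enhancers farther from the start were not searched.

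FECH (chr18:57544377-57586702), the enzyme of the last step of heme synthesis, was lower with PTD-DRBD. Its detected probe had log2 levels of 9.39 and 9.34 with lipofection, 9.09 and 8.99 with PTD-DRBD and 9.49 and 9.36 in control cells at 12 h, and 9.03 and 9.07 with lipofection, 8.93 and 9.02 with PTD-DRBD and 9.31 and 9.31 in control cells at 24 h. Both PTD-DRBD arrays lay below both control arrays at each time, and lipofection arrays overlapped with control at 12 h and lay below it at 24 h. FECH fell with PTD-DRBD by 0.38 ± 0.08 on the log2 scale at 12 h (limma adjusted p = 0.0291) and by 0.33 ± 0.08 at 24 h (limma adjusted p = 0.0370). With lipofection the difference was -0.06 at 12 h (limma adjusted p = 0.753) and -0.25 at 24 h (95% interval -0.44 to -0.07, limma adjusted p = 0.0584), and the 24 h value passed in 5 of the 21 settings with limma adjusted p between 0.0267 and 0.0392. At 12 h FECH was higher with lipofection than with PTD-DRBD by 0.32 ± 0.08 (limma adjusted p = 0.0341), and at 24 h that difference was 0.08 (limma adjusted p = 0.663).

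The FECH calls depended on single arrays. Leaving out any of the 4 arrays compared moved the PTD-DRBD fall to a limma adjusted p between 0.0717 and 0.182 at 12 h and between 0.115 and 0.146 at 24 h, and leaving out either lipofection array at 12 h moved it to 0.051 and 0.0587. Fitting only the arrays compared gave 0.116 at 12 h and 0.0975 at 24 h, and the 24 h value without both second treated arrays was 0.135. The 12 h gap between the carriers had limma adjusted p between 0.078 and 0.183 without any of its 4 arrays, 0.0851 with only these fitted and 0.0505 without both second treated arrays. In every one of these fits the PTD-DRBD difference from control remained between -0.45 and -0.29. The other FECH probe was not detected (detection p-values of 0.0635 to 0.352) and cannot check the detected one.

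TFRC (chr3:196049284-196082090), which imports transferrin-bound iron, passed in no comparison. Its log2 levels were 13.82 and 13.67 with lipofection, 13.81 and 13.95 with PTD-DRBD and 13.64 and 13.64 in control cells at 12 h, and 13.55 and 13.39 with lipofection, 13.39 and 13.36 with PTD-DRBD and 13.38 and 13.35 in control cells at 24 h. All 4 treated arrays at 12 h lay above both control arrays, and PTD-DRBD and control arrays overlapped at 24 h. The differences from control were 0.10 for lipofection and 0.24 for PTD-DRBD at 12 h (limma adjusted p = 0.561 and 0.176) and 0.10 and 0.006 at 24 h (0.479 and 0.977). In control cells TFRC differed by -0.27 between 24 h and 12 h (limma adjusted p = 0.113), and this passed in 3 of the 21 settings (0.0177 to 0.0435). The repressor BACH1 was not detected on any array (detection p-values of 0.0981 to 0.597), so no value is given for it.

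**Figure D2:**
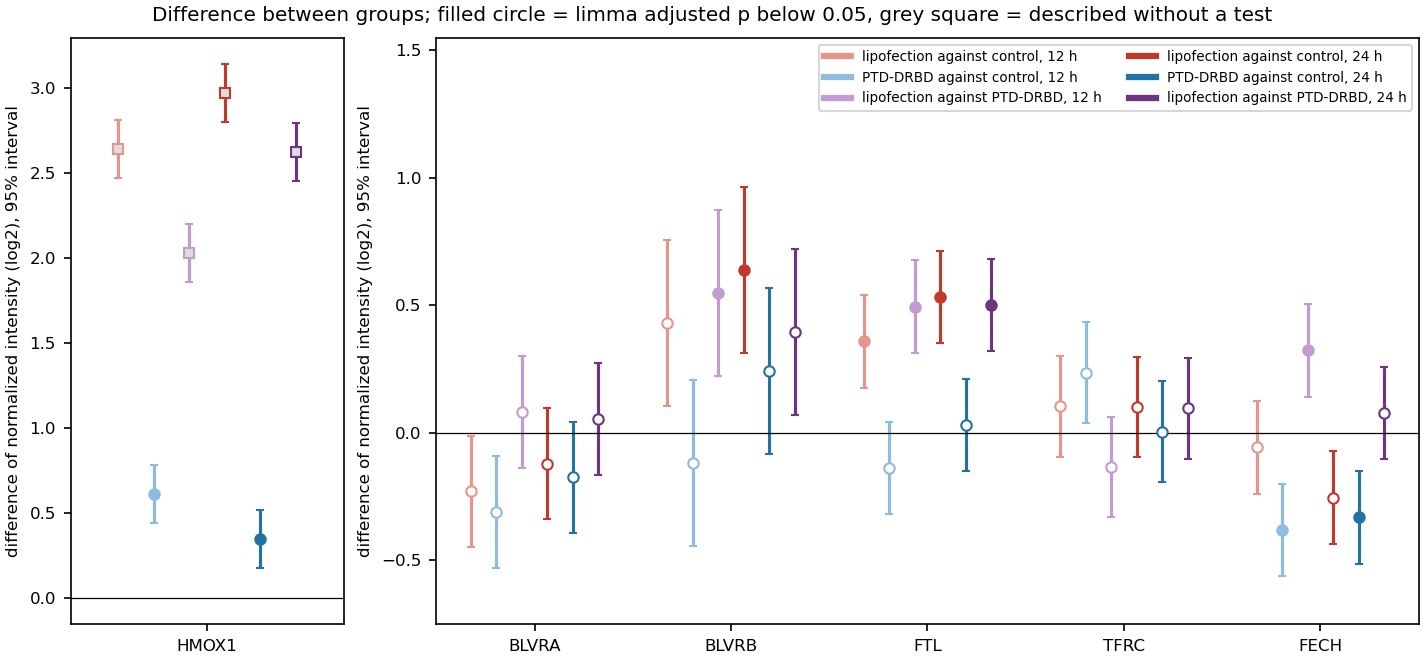
Differences of log2 normalized intensity between groups for the 6 genes, with 95% intervals, lipofection or PTD-DRBD minus control and lipofection minus PTD-DRBD at 12 h and 24 h. Filled circles passed limma's test at an adjusted p of 0.05, open circles did not, and grey squares mark the HMOX1 values given without a test, on their own scale at the left. Intervals of BLVRB are the widest.

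HMOX1 is left out of the member counts for lipofection, where its values are described without a test. Its calls with PTD-DRBD against control are counted, but only as description. Of the other 5 detected members, 1 (FTL) was called higher and 0 lower with lipofection against control at 12 h, where 7.33% of all detected probes were called in either direction, 3.19% higher and 4.13% lower. At 24 h the count was 2 of 5 higher (BLVRB and FTL) and 0 lower, beside 16.4% of all probes, 7.51% higher and 8.91% lower. For PTD-DRBD against control 1 of 6 members, HMOX1, was called higher and 1, FECH, lower at each time, beside 3.99% of all probes at 12 h and 7.39% at 24 h. Lipofection against PTD-DRBD gave 3 of 5 higher at 12 h (BLVRB, FTL and FECH), beside 8.85% of all probes called, 4.16% higher, and 1 of 5 at 24 h (FTL), beside 4.96% called, 2.77% higher. No tested member passed for a change of the lipofection difference (0 of 5) or of the PTD-DRBD difference (0 of 6) with time, where 3.56% and 0.107% of all probes were called, and 1 of 6, HMOX1, passed between control cells at 24 h and 12 h, beside 5.3%. The comparisons with control at one time share their 2 control arrays, and those between carriers reuse the treated arrays, so these counts are not independent of each other. Each of the 4 comparisons with control had a median log2 difference over all probes between 0.001 and 0.007. Of the 12 calls counted here, 4 held in all 21 settings, namely HMOX1 in PTD-DRBD cells against control at 12 h, HMOX1 in the control cells over time, and FTL with lipofection against control at 24 h and against PTD-DRBD at 12 h. BLVRB at 12 h was also called against PTD-DRBD (log2 difference 0.55 ± 0.15, limma adjusted p = 0.0424), a call lost without any 12 h array and without the detection filter (0.0569 to 0.205).

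The wider pathway was described by gene lists of heme and iron biology, all chosen with earlier results of these arrays known. As the background for these counts, 3.67% of all named genes were called higher and 5.27% lower with lipofection at 12 h, and 8.57% and 10.5% at 24 h. With PTD-DRBD 1.89% were called higher and 3.03% lower at 12 h, and 3.27% and 5.35% at 24 h. In heme synthesis, 7 of 9 listed genes were detected, FECH among them. With lipofection 0 passed at 12 h and 1 fell at 24 h, and with PTD-DRBD 1 fell at 12 h and 2 fell at 24 h, with list medians between -0.04 and 0.07. The lipofection counts of this list do not exceed the share of all named genes called (8.94% at 12 h and 19.1% at 24 h). CPOX, which oxidises coproporphyrinogen in mitochondria, fell by 0.60 with lipofection at 24 h (limma adjusted p = 0.0029) and by 0.45 with PTD-DRBD at 24 h (limma adjusted p = 0.0221), and its 12 h differences were -0.07 and -0.23. The fall with lipofection held in all 21 settings, and that with PTD-DRBD was lost without either control array or the second PTD-DRBD array (limma adjusted p 0.101 to 0.183). Among 7 detected genes of heme transport and binding, ABCB6, a porphyrin transporter, was the only gene to pass in a comparison with control, at 0.59 at 12 h and 0.47 at 24 h with lipofection (limma adjusted p = 0.0072 and 0.0124). Its calls were lost without the first control or the second lipofection array at 12 h (limma adjusted p up to 0.0801), and without either control or the second lipofection array at 24 h (up to 0.112).

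Iron uptake had 8 detected genes of 13. With lipofection 3 fell at 12 h, and 2 rose and 2 fell at 24 h, while with PTD-DRBD 0 passed at 12 h and 1 fell at 24 h. The 4 calls among 8 genes with lipofection at 24 h stand beside 19.1% of all named genes, and the 3 at 12 h beside 8.94%. The genes that fell belong to the STEAP family of metalloreductases, of which STEAP3 is known to reduce endosomal iron. STEAP3 was lower with lipofection by log2 values of -0.48 at 12 h and -0.70 at 24 h and lower with PTD-DRBD at 24 h by -0.47, STEAP2 by -0.55 and -0.43 with lipofection, and STEAP1 by -0.38 with lipofection at 12 h. SLC11A2, the divalent metal transporter DMT1, rose by 0.40 with lipofection at 24 h (limma adjusted p = 0.0089). The call of STEAP3 with lipofection at 24 h held in all 21 settings. That of SLC11A2 did not hold when control array 1 was left out (limma adjusted p = 0.0647), and the other STEAP calls were lost in 3 to 6 of the 21 settings, in each case including some without 1 array of the groups compared. The STEAP2 value at 24 h was -0.25 without the second lipofection array (limma adjusted p = 0.254). None of the 3 iron export genes SLC40A1, CP and HEPH was detected.

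FTL was the only gene called among the 4 detected of 7 for iron storage, release and chaperones, in either lipofection comparison. Of all named genes, 8.94% at 12 h and 19.1% at 24 h were called with lipofection, the background for this list and the next. Of 4 detected genes of iron sensing and the hepcidin axis, FBXL5, the iron-sensing part of a ubiquitin ligase that degrades an iron regulatory protein, fell by 0.41 at 12 h and 0.37 at 24 h with lipofection, and BMP6, a ligand that induces hepcidin in liver, fell by 0.26 at 24 h. The BMP6 call was lost in 14 of 21 settings, among them leaving out any of the 12 arrays (limma adjusted p 0.0530 to 0.245), and those of FBXL5 in 7 settings at 12 h and 9 at 24 h, among them leaving out any of the 4 arrays compared. Where leaving out 1 array lost the FBXL5 call, the limma adjusted p was 0.0575 to 0.221 at 12 h and 0.0542 to 0.156 at 24 h. Of the 21 detected genes of mitochondrial iron and iron-sulfur clusters, 0 rose and 1 fell with lipofection at 12 h, 3 rose and 2 fell at 24 h, 1 rose with PTD-DRBD at 12 h, and 2 rose and 1 fell at 24 h. With lipofection the 5 of 21 at 24 h are near the 19.1% of all named genes called, and the 1 of 21 at 12 h is below the 8.94%. The PTD-DRBD counts stand beside 4.92% of all named genes called at 12 h and 8.62% at 24 h. ABCB10, a mitochondrial transporter tied to heme synthesis, fell by 0.74 with lipofection at 24 h, and HSCB, a cochaperone of iron-sulfur cluster transfer, rose by 0.46 with lipofection and by 0.49 with PTD-DRBD at 24 h. IBA57, an assembly factor for these clusters, rose by 0.35 with lipofection at 24 h and by 0.44 with PTD-DRBD at 12 h, and NUBP1, a scaffold of the cytosolic pathway, rose by 0.43 with PTD-DRBD at 24 h. The calls of these 4 genes were lost in 3 to 10 of the 21 settings, those of ABCB10 without the second control or the second lipofection array (limma adjusted p 0.0623 and 0.0754). With the authors' values the IBA57 differences were 0.19 with lipofection at 24 h and 0.24 with PTD-DRBD at 12 h and did not pass. The median of this list was between -0.06 and 0.09 in the 4 comparisons.

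Among genes that control HMOX1 transcription, 8 of 11 were detected. With lipofection 2 rose at 12 h and 3 at 24 h, with PTD-DRBD 0 at 12 h and 1 at 24 h, and 0 fell, beside 3.67% and 8.57% of all named genes called higher with lipofection and 1.89% and 3.27% with PTD-DRBD. MAFG, a small MAF partner of both NRF2 and BACH1, rose by 0.46 at 12 h and 0.83 at 24 h with lipofection (limma adjusted p = 0.0244 and 0.0008) and by 0.56 with PTD-DRBD at 24 h (0.0127), and its difference with PTD-DRBD at 12 h was 0.16. NFE2L2 itself rose by 0.45 with lipofection at 24 h (limma adjusted p = 0.0087), and was at 0.09 at 12 h. KEAP1, which targets NRF2 for degradation, rose by 0.36 and 0.37 with lipofection at 12 h and 24 h. The MAFG call with lipofection at 24 h held in all 21 settings, and its other calls were lost in 4 settings at 12 h and in 5 with PTD-DRBD, in each case including some without 1 array of the groups compared. That of NFE2L2 did not hold when control array 1 was left out (limma adjusted p = 0.0583), and those of KEAP1 were lost in 7 settings at 12 h and 5 at 24 h.

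Genes known as NRF2 targets outside heme and iron gave the highest counts of the lists with lipofection, though not with PTD-DRBD. Of 10 detected genes of 12 listed, 8 rose at 12 h and 7 at 24 h with lipofection, and 1, GCLM, rose at each time with PTD-DRBD, with 0 falling, beside the same shares of all named genes called higher. The list medians were 0.75 at 12 h and 0.49 at 24 h with lipofection, and 0.08 and 0.06 with PTD-DRBD. SRXN1, which repairs oxidised peroxiredoxins, rose by 1.09 and 1.29 with lipofection and stood at 0.33 and 0.14 with PTD-DRBD at 12 h and 24 h. TXNRD1, thioredoxin reductase, rose by 0.73 and 0.93 with lipofection. GCLM, a subunit of the enzyme that starts glutathione synthesis, rose by 1.14 and 0.55 with lipofection and by 0.43 and 0.34 with PTD-DRBD. SLC7A11, the cystine importer, rose by 1.20 with lipofection at 12 h and was at 0.07 at 24 h. Its 12 h call held in the 20 settings in which it could be fitted, with a lowest log2 difference of 0.65. The fit restricted to probes detected on all 12 arrays did not include it. The lipofection calls of SRXN1, TXNRD1 and GCLM at both times held in all 21 settings, whereas those of GCLM with PTD-DRBD were lost in 5 settings at 12 h and 8 at 24 h, among them leaving out any of the 4 arrays compared. Of the 35 calls of the list genes chosen for naming outside the member set, 10 held in every setting in which they could be fitted.

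**Figure D3:**
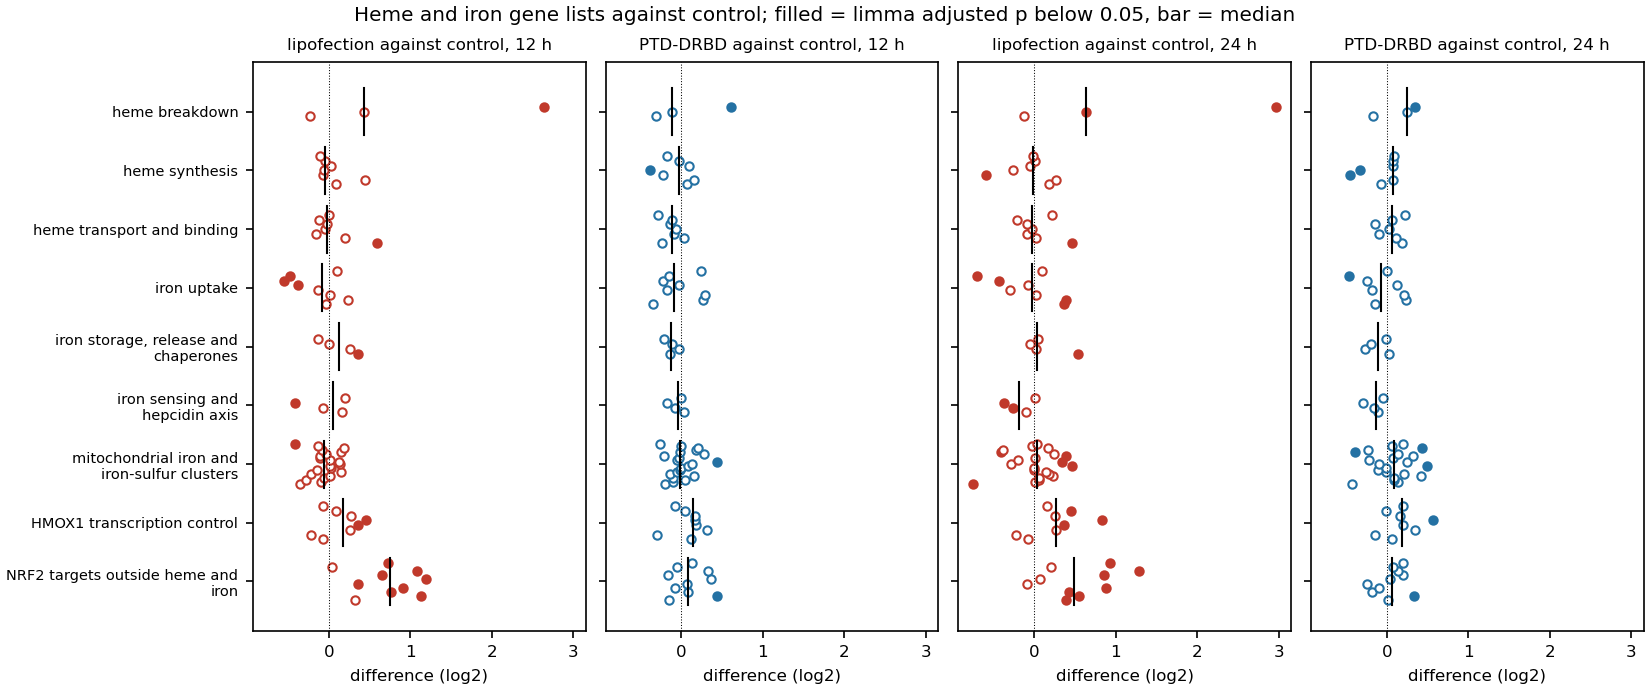
Log2 differences from control of the detected genes of 9 heme and iron gene lists, for lipofection and PTD-DRBD at 12 h and 24 h. Each point is a gene, filled where limma's adjusted p is below 0.05, and black bars are list medians. The point farthest right in the lipofection panels is HMOX1, and the NRF2 target list lies mostly right of 0 with lipofection.

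Markers of other cell types were set beside these groups of genes. Of the detected ones, HBG1 was called higher by 0.33 with lipofection at 24 h and ITGAM lower by a log2 difference of -0.44 with lipofection at 12 h. The HBG1 call was lost in 10 and the ITGAM call in 5 of the 21 settings. Both probes were dim, with raw intensities of 97 to 123 for HBG1 and 96 to 135 for ITGAM. Summed raw intensity of the 7 erythroid probes was 637 to 641 with lipofection, 584 to 622 with PTD-DRBD and 660 to 674 in control cells at 12 h, and 646 to 676, 608 to 645 and 636 to 646 at 24 h. The sum of 12 macrophage probes, of which CD68 is the brightest, was 4290 to 4337 with lipofection, 4923 to 5196 with PTD-DRBD and 5060 to 5226 in control cells at 24 h, and the 12 h groups overlapped. The 10 fibroblast and endothelial probes summed to 555 to 665 over all groups. The sums were not corrected for background, and most probes of the erythroid list and of the fibroblast and endothelial list did not pass the detection rule. Raw array medians at 12 h were 68.7 and 67.7 with lipofection, 65.9 and 68.6 with PTD-DRBD and 73.1 and 70.4 in control cells. How far the sums follow the array background was not tested. KRT8 was lower with lipofection at 12 h by a log2 difference of -0.51 (limma adjusted p = 0.0093), a call lost in 3 of the 21 settings. The part of these shifts in the results above was not tested.

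Across the 12 arrays, the other members followed HMOX1 to different degrees. Pearson's r with HMOX1 was 0.86 for FTL, 0.70 for BLVRB, 0.32 for TFRC, -0.01 for FECH and -0.36 for BLVRA. Of all named genes, those with the highest r were NPIPA1, KANSL2, SRXN1 and H2AC12 (0.97 each) and NQO1, ZNF416, ZNF134 and RPPH1 (0.96 each), and those with the lowest were FGD1 and POLE2 (-0.95 each), PAQR4 (-0.94) and DIPK1B (-0.93). These values describe arrays of 6 groups that share treatments, and the 4 lipofection arrays hold the 4 highest HMOX1 values of the 12. Likeness of pattern was not likeness of size. RPPH1, the RNA of ribonuclease P, differed from control by 2.74 and 2.32 with lipofection at 12 h and 24 h, close to HMOX1, while KANSL2 differed by 0.29 and 0.30 and NPIPA1 by 0.33 and 0.38. NQO1, a quinone reductase, differed by 0.91 and 0.89 with lipofection, and unlike HMOX1 lay at -0.08 and -0.09 with PTD-DRBD.

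**Figure D4:**
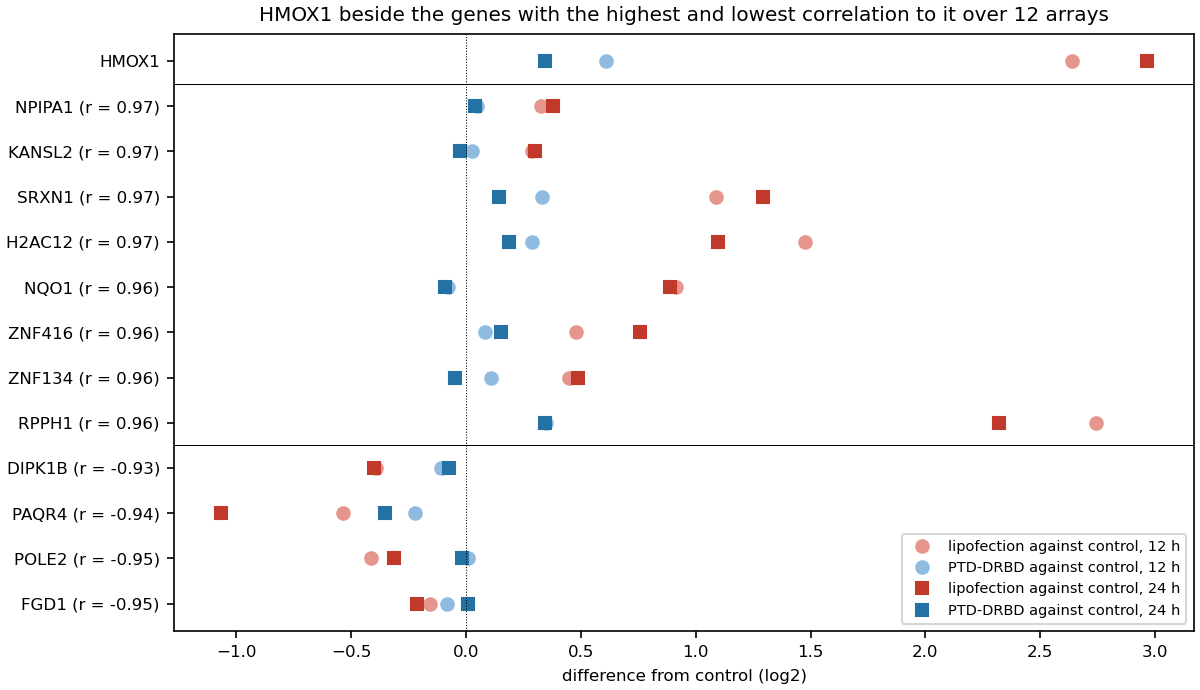
Log2 differences from control of HMOX1 (top row), of the 8 genes with the highest and of the 4 genes with the lowest Pearson r to HMOX1 over 12 arrays. Circles are 12 h and squares are 24 h, red for lipofection and blue for PTD-DRBD. Lipofection values lie far above 0 for HMOX1, RPPH1, SRXN1 and H2AC12 and far below 0 for PAQR4 at 24 h (-1.07). PTD-DRBD values of the genes with the highest r lie between -0.09 and 0.35.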

How the data were processed

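H1299 total RNA was labelled as biotinylated cRNA and measured on 12 Illumina bead arrays, 2 in each of 6 groups taken from the sample titles, and all were used. The deposited raw table gives 1 signal intensity per array for each of 48701 probes. It was made with BeadStudio per the submitters' processing notes (version not given in the sources used here). Beside it the authors deposited a detection p-value per probe and array. The authors also deposited normalized intensities (method not given in the sources used here) and a table of signed fold scores of changed probes, with a fold threshold of 1.6. The signs of all scores in that deposited table matched treated over control in the authors' normalized intensities.

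In R 4.3.3, neqc of limma 3.58.1 corrected raw intensities for background by the detection p-values, added an offset of 16, quantile normalized them and returned log2 values. The 6 group means were fitted to 19631 detected probes over all 12 arrays with limma's lmFit and eBayes (6 residual and 5.21 prior degrees of freedom), 9 contrasts were tested, and the Benjamini-Hochberg adjustment ran over all detected probes with a threshold of 0.05. Such p-values set a group difference against the spread between arrays of the same group, pooled over the groups. That spread may be only technical, so they need not extend to other cultures. The number of arrays limits the precision, and an exact permutation test of 2 against 2 arrays cannot go below p = 0.333. Groups of 2 arrays that do not overlap reach no smaller value than this in such a test. The share of all probes whose arrays do not overlap is not given here, so the statements on overlap are description. A gene stands for its brightest detected probe. Of all probes 23687 had 1 gene symbol, 35 several and 24979 none in the platform annotation, and 23651 matched the reference gene table. On simulated data for lipofection against control at 12 h, 50% of changes of 0.5, 98.75% of changes of 1 and 100% of changes of 2 on the log2 scale were recovered among 200 changed of 19631 probes, with 10 false calls. The simulated errors were independent and normal, with the spread that limma had fitted, and no deviation was shared by the probes of an array. The simulation therefore checks the fitting steps and does not give the error rates of these arrays.

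The members and lists were chosen with earlier results of these data known. Named are all members, GAPDH, from each list at most 4 genes called against control by largest change, and the 8 genes most and 4 least like HMOX1 by Pearson's r. Alternatives were other normalizations, other detection filters, 1 probe per gene, only the arrays compared, trended robust moderation, each array left out in turn and, chosen after seeing the data, a fit lacking the second array in the lipofection and PTD-DRBD groups at 24 h.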

Additional observations from a re-analysis of the deposited data

Results flagged for a closer look

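The lipofection difference from control changed with time for SLC7A11 and GCLM. For SLC7A11 it was 0.07 at 24 h and 1.20 at 12 h on the log2 scale, a change of -1.12 (limma adjusted p = 0.0129). For GCLM it was 0.55 at 24 h and 1.14 at 12 h, a change of -0.59 (limma adjusted p = 0.0289). How these changes with time depend on the processing was not examined.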

How the results depend on the processing

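No paired analysis was possible because the sample numbers in the labels run on from 1 to 12 and give no number shared between groups. Of 2015 values of single genes under 21 settings, 1781 kept their direction and side of the threshold, 199 lost and 16 gained a call and 19 changed sign. These counts include settings that leave out an array of a group not compared. There the log2 difference cannot change, and only its adjusted p can. Counting HMOX1 among the members in every comparison, leaving out 1 array in turn gave 1 to 2 called members for lipofection against control at 12 h, 1 to 2 for PTD-DRBD at 12 h, 0 to 2 for PTD-DRBD at 24 h, and 2 to 4 at 12 h and 1 to 2 at 24 h for lipofection against PTD-DRBD. With only the arrays compared, PTD-DRBD against control had 1 call at 12 h and 0 at 24 h, and lipofection against PTD-DRBD at 24 h had 1. Without both second treated arrays at 24 h, these 24 h counts were 0 and 1. Trended robust moderation gave 4 for PTD-DRBD at 12 h and 2 between control cells at 24 h and 12 h, which also had 2 with quantile normalization without background correction and with the authors' values. All sign changes were of members that did not pass the test. TFRC with PTD-DRBD at 24 h was -0.023 with the authors' values and -0.00502 with cyclic loess, and -0.0077 to 0.019 leaving out 1 array. The change of its lipofection difference with time was 0.020 with the authors' values, 0.047 with cyclic loess, 0.075 without both second treated arrays and -0.079 to 0.075 leaving out 1 array. Leaving out 1 array gave -0.12 to 0.0083 for FECH with lipofection at 12 h, -0.015 to 0.12 for the change of its PTD-DRBD difference with time, -0.019 to 0.18 and -0.012 to 0.12 for BLVRA between lipofection and PTD-DRBD at 12 h and 24 h, and -0.061 to 0.13 for BLVRA, -0.095 to 0.14 for BLVRB and -0.080 to 0.032 for FTL between control cells at 24 h and 12 h. A group with a lone array was assumed to vary like the others. The causes were not tested.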
